A study of Mus musculus with 3 samples.

Results

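Cd34, Kit, Flt3, Cd44 and Prom1 encode surface proteins by which blood stem and progenitor cells are recognised and sorted. They were taken as the non-control probes that carry one of these gene symbols, which gave 8 probes of 41174 and 5 genes of 27729 on the array. RNA was compared with and without phospho-ascorbate (pAsc), a stable form of vitamin C, at 800 µM. The T lineage cells were grown from C57BL/6 bone marrow progenitor cells on OP9-DL1 stroma with Flt3L and IL7, and both the treated and the untreated cells had these cytokines. One pair of cultures was taken at 14 days with pAsc for the last 24 h, and another at 17 days with pAsc for the last 72 h. OP9-DL1 cells alone, in continuous culture, formed the remaining pair, with pAsc for 24 h. These are mouse marrow stromal cells made to display Dll1, a ligand of Notch, and are labelled as osteoblast of strain B6-C3Hf1. T cells were separated from the stroma by a short adherence step only. Each pair was hybridised on 1 array, Cy3 marking the untreated and Cy5 the treated RNA, with no replicate array and no dye swap. Values from 1 array per comparison have no replicate check, no p-value is given, and a probe's dye effect and the treatment cannot be told apart within an array.

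CD34 is a sialomucin of stem and early progenitor cells and of blood vessels. KIT and FLT3 are related receptor tyrosine kinases, for stem cell factor and for FLT3 ligand, whose signals sustain progenitors. CD44 is an adhesion receptor for hyaluronan that also binds osteopontin, and PROM1 (CD133) is a membrane protein of several stem cell types. In the thymus, the earliest T cell progenitors carry KIT and CD44. KIT and CD44 are lost from the surface as cells commit to the T lineage, and FLT3 is lost earlier still.

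After loess, Cd34 had the largest treated over untreated differences of the measured markers in T cells. It was 1.71-fold higher with pAsc in the T cell culture treated for 24 h and 3.46-fold lower in the culture treated for 72 h. Kit was 1.43-fold higher at 72 h, and at 24 h it was 1.17-fold lower after loess. Centred on all probes, its 24 h ratio was above 0 but still below the median of all genes. Cd44 lay within 1.15-fold of its untreated level on its brightest probe in both cultures. Flt3 was barely above background at day 14 and not well above it elsewhere, and Prom1 was not well above background in any of the 6 RNA samples. A gene is called measured here if a share of 0.5 or more of the spots of its probe passed as well above background in Cy3 and in Cy5. By this rule 4 marker genes were measured on the 24 h T cell array, 3 on the 72 h array and 2 in stroma.

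All probes were 60 bases long, and their positions are on mm9. The Cd34 probe lay at chr1:196787392-196787451, plus strand, and matched 2 RefSeq transcripts. The Kit probe, at chr5:76052287-76052346, plus strand, was spotted 10 times and is annotated to a c-kit mRNA for a truncated tyrosine kinase beside another c-kit record. Whether it read the full-length transcript, the truncated one or both was not tested. Cd44 had 3 probes on the minus strand, at chr2:102652907-102652966 (probe 1), chr2:102651667-102651726 (probe 2, spotted 10 times) and chr2:102674420-102674479 (probe 3). Probes 1 and 2 matched 3 RefSeq transcripts. Probe 3 matched 2 of these 3, so it reads only the forms of Cd44 that hold its own stretch. The Flt3 probe lay at chr5:148159595-148159654, minus strand. Prom1 had probes at chr5:44397410-44397469 (probe 1) and chr5:44385331-44385390 (probe 2), minus strand. The sequences of 3 probes that lie in coding sequence and read at or near background are shown, since what they can and cannot detect rests on these bases.
Flt3 probe 1: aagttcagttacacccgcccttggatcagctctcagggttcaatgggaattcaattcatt
Cd44 probe 3: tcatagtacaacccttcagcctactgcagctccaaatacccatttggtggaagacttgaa
Prom1 probe 1: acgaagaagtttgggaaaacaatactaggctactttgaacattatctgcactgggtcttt

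Some facts of the arrays bear on the values of all marker genes. Repeat spots of a probe differed within an array with an SD of 0.066 to 0.07 on the log2 ratio scale, and measured probes of a gene with an SD of 0.143 to 0.178. These are the only spreads the design holds, and neither includes variation between cultures. The median ratio of all measured genes lay between 0.005 and 0.02 after loess normalization. Centring each array on the median of all probes, in place of loess, moved it to 0.64 in stroma, 0.41 at 24 h and 0.54 at 72 h, so ratios are best read against that median. The 20 stromal marker genes, all well above background in stroma, had a median level of 20.8% of that in untreated stroma in the untreated day 14 T cells and 32.1% in the treated ones. At day 17 these shares were 61.1% and 80.1%. The defining T lineage genes were present in the T cells, with 10 or 11 of 11 markers well above background there and 1 or 2 of 11 in stroma.

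**Figure D1:**
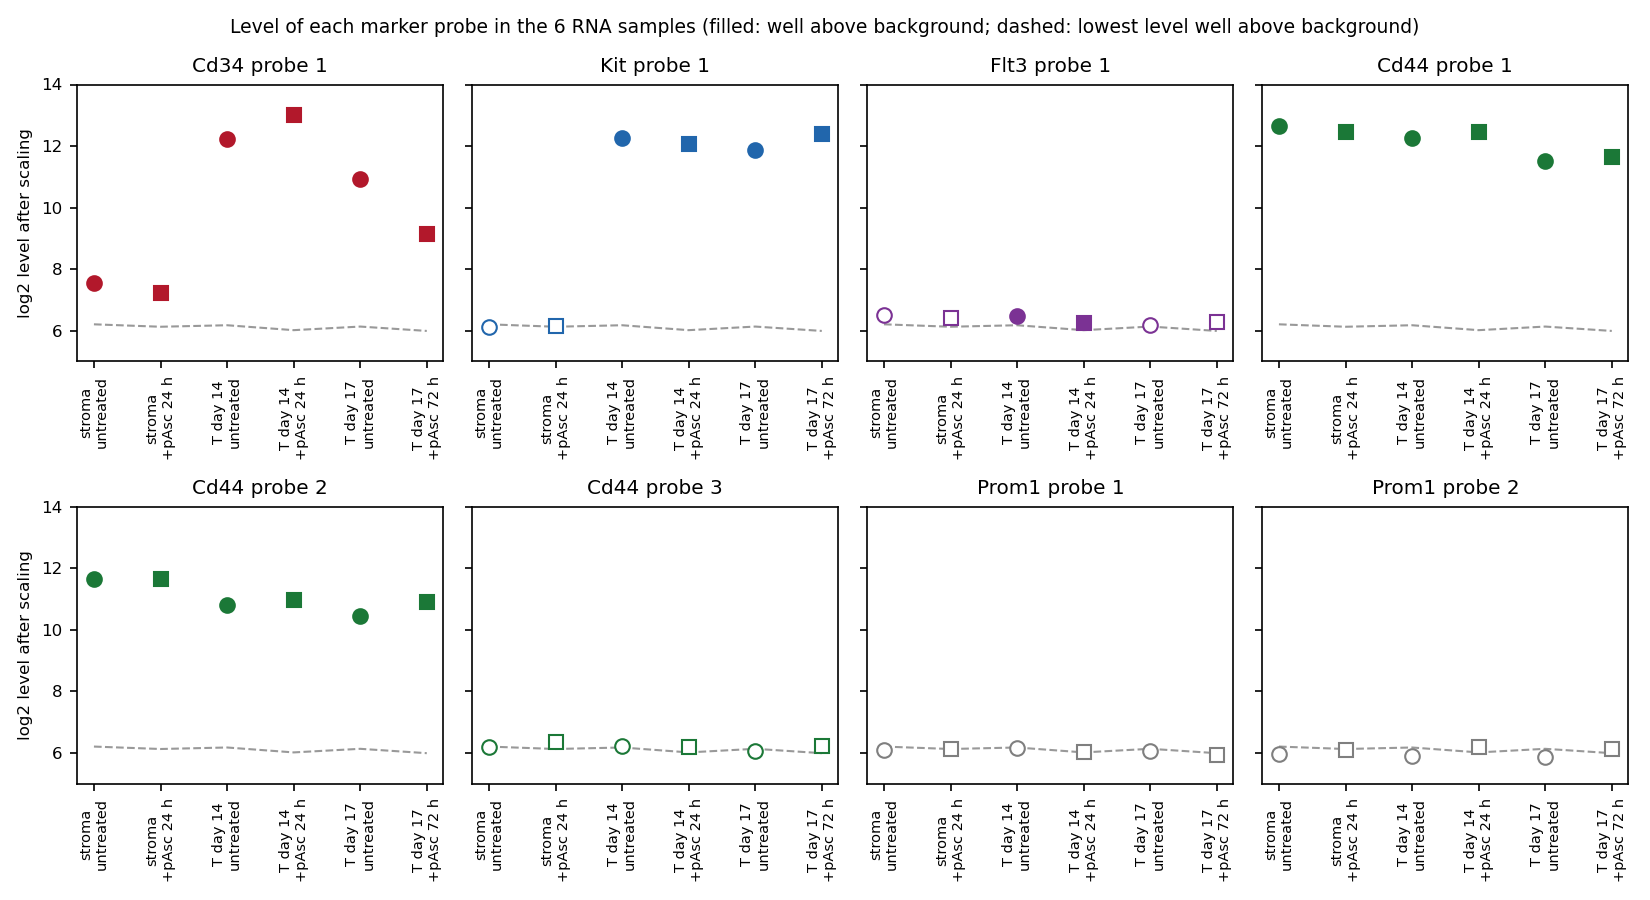
Each panel shows 1 probe, with the log2 level after loess and scaling between arrays on the vertical axis and the 6 RNA samples on the horizontal axis (circles untreated, squares treated, filled where well above background). Cd34 ran from 13.01 in treated day 14 T cells down to 7.23 in treated stroma, while Prom1 and Cd44 probe 3 stayed near the dashed line, the lowest level well above background.

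Cd34, the sialomucin, was well above background in all 6 samples. In untreated and treated stroma its signals were 72.4 and 126.5 intensity units over backgrounds of 21.5 and 56.5. In T cells at day 14 the signals were 2853 untreated and 12990 treated, and at day 17 they were 1418 and 1029. Cy5 signals ran higher than Cy3 signals on these arrays for other probes too, so the channels are compared only after normalization.

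On the log2 scale after loess and scaling between arrays, the Cd34 level was 7.55 in untreated and 7.23 in treated stroma. It was 12.23 in untreated and 13.01 in treated T cells at day 14, and 10.92 and 9.13 at day 17. The order of the levels was therefore treated day 14, untreated day 14, untreated day 17, treated day 17, untreated stroma and treated stroma. The neighbours untreated and treated stroma were 0.32 apart and the other neighbours at least 0.77 apart. These gaps were larger than the SD of 0.155 to 0.176 between repeat spots of a probe in these levels. That SD comes from other probes, as the Cd34 probe had 1 spot per array, and it is the spread of a level, not of a difference. The untreated and treated stromal signals were 3.37 and 2.24 times their background. Whether their gap exceeds the spread of Cd34 itself was not tested, so their order is not settled. The 2 stromal samples lay below the 4 T cell samples. Many genes differed between these cell types. Of 13844 genes 40.3% differed by 1 log2 unit or more between untreated stroma and untreated day 14 T cells, and 15.6% were lower in stroma.

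Of the 4 marker genes measured in T cells at 24 h, 0 passed the 2-fold rule, where 0.324% of 16971 measured genes did. By loess Cd34 came nearest, with a log2 ratio of 0.77, and 214 of the 16971 genes had a higher ratio. In the authors' deposited log ratio Cd34 was also at 0.77 (deposited error 0.216). There Flt3, barely above background, lay further from 0, at -0.84 (deposited error 0.322). Centred on all probes in place of loess, Cd34 was at 1.36, past 2-fold, where 4.42% of genes were. Of the 3 marker genes measured at 72 h, 1 passed the rule, Cd34, downward, where 0.608% of 16282 genes passed in either direction and 0.381% downward. Its log2 ratio was -1.79, or -1.91 (deposited error 0.27) in the authors' deposited log ratio, and 6 of the 16282 genes lay lower. Centred on all probes it was -1.16, still past 2-fold, where 9.64% of genes were. In these bulk samples, fewer cells that express Cd34 and less Cd34 RNA per cell cannot be told apart.

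The Cd34 ratios of the T cell cultures had opposite signs, so their difference was necessarily larger in size than either. The 72 h ratio of Cd34 minus its 24 h ratio was -2.56, the lowest value of 15741 genes measured on both arrays. By a rule of 1 log2 unit 1 of 3 marker genes was called, where 0.553% of those genes were called in either direction and 0.362% downward. A dye effect that is constant for the probe cancels in this difference, while the day of culture differed along with the time of treatment. Under every alternative run the 24 h ratio of Cd34 was above 0 and the 72 h ratio below 0.

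The untreated cells themselves also had less Cd34 at the later day. Untreated Cd34 was 2.49-fold lower at day 17 than at day 14, a log2 difference of -1.31, and 258 of 15847 genes lay lower. It was the only marker of 3 past 1 log2 unit, where 11.3% of genes were past it in either direction and 3.66% downward. Between the treated samples the difference was -3.88, or 14.7-fold lower at day 17, and 7 of 16877 genes lay lower. Again 1 of 3 markers was called, where 12.2% of genes were called in either direction and 5.39% downward. These differences use the same channels as the treated over untreated ratios and are not further measurements.

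In stroma the Cd34 ratio was -0.32 by loess and -0.69 (deposited error 0.24) in the authors' deposited log ratio. Its value ranged from -0.81 to -0.17 over the alternatives and did not reach 2-fold. Of the 2 marker genes measured in stroma 0 passed the rule, where 0.551% of 14346 genes did. Against untreated T cells, untreated stroma had 25.7-fold less Cd34 than at day 14 and 10.3-fold less than at day 17. This was the single call among 2 markers measured in both untreated stroma and untreated day 14 cells, where 40.3% of 13844 genes differed by 1 log2 unit or more and 15.6% were lower in stroma.

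**Figure D2:**
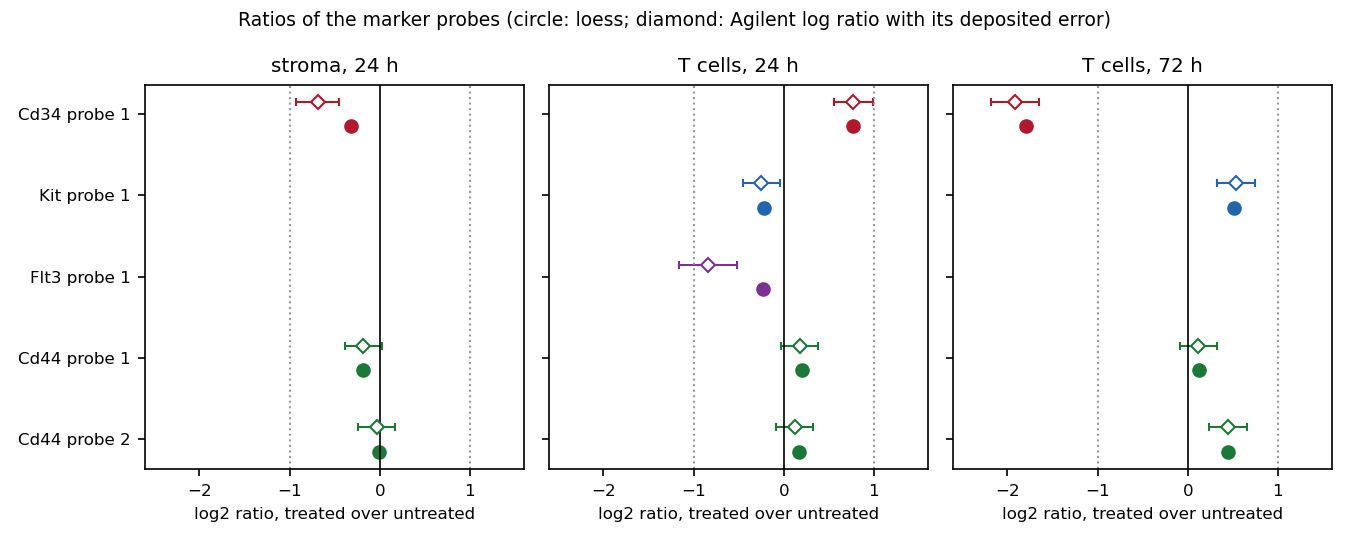
Log2 ratios of treated over untreated RNA on the horizontal axis for the 5 probes measured on at least 1 array, 1 panel per array, with filled circles from loess and open diamonds from the deposited log ratio with its deposited error as a bar. Dotted lines mark 2-fold, and Cd34 lies past one of them at 72 h, at -1.79 by loess and -1.91 in the deposited ratio.

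Because Cd34 had the largest ratios by loess, the 250 bases before its annotated start are shown, from RefSeq on GRCm38.p6, chr1:194938571-194938820, plus strand. Matches to the core AACNG of the MYB motif, searched on both strands, are in capitals.
Cd34 upstream: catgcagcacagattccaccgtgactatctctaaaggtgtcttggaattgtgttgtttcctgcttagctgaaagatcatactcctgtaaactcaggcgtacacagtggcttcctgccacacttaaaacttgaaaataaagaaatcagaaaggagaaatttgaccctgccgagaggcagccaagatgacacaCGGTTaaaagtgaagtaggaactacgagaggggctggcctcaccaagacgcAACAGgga
The window held 2 matches to AACNG, which 74.1% of 27025 gene windows of this length also hold at least once. It held 0 matches to GATAA, the core of the GATA motif, found in 23.0% of windows. The 2 matches do not overlap. MYB is a transcription factor of progenitors. Its own gene had a log2 ratio of -1.29 at 72 h on its brightest probe, with -0.44 on the highest of 4. Binding of MYB to these matches, and any part of it in the Cd34 ratio, was not tested.

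Kit, the receptor for stem cell factor, was bright in T lineage RNA and not well above background in stroma. In T cells its signals were 3008 untreated and 6719 treated at day 14, and 2499 and 9712 at day 17, over backgrounds of 20.7 to 61.9. In stroma they were 25.8 and 62.4, over backgrounds of 22.0 and 55.1. Kit was at least 67.3-fold lower in untreated stroma than in untreated day 14 T cells, and at least 51.1-fold lower than in day 17 T cells. These bounds set the mean of the T cells against the higher of the dim signal and the lowest signal well above background in stroma, and they compare different arrays.

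The log2 level of Kit was 12.28 untreated and 12.05 treated at day 14, and 11.88 untreated and 12.39 treated at day 17. The order of levels was treated day 17, untreated day 14, treated day 14 and untreated day 17. Neighbours in this order were 0.11 to 0.22 apart, within the SD of 0.228 to 0.264 between the 10 repeat spots of the probe in each sample. The ratio of the channels within a spot varied less than these levels.

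At 24 h the Kit log2 ratio was -0.22 (SD 0.035 over 10 spots of 1 array), with spots from -0.29 to -0.17 and 0 of 10 above 0. Centred on all probes in place of loess it was 0.34, where the median of all genes was 0.41. Its sign thus depended on the scaling, while it lay below the median of all genes in both settings. At 72 h it was 0.51 (SD 0.060 over 10 spots), with spots from 0.42 to 0.60 and 10 of 10 above 0. The value centred on all probes was 1.27, past 2-fold. The authors' deposited log ratios gave -0.25 (deposited error 0.205) and 0.54 (deposited error 0.21). The spots of the 2 T cell arrays did not overlap, but they are repeat readings of 1 RNA pair each.

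After loess Kit stood on the other side of 0 from Cd34 on both T cell arrays. At 24 h when centred on all probes both were above 0, with Kit below the median of all genes and Cd34 above it. The 72 h minus 24 h difference of Kit was 0.74, with 77 of 15741 genes higher, beside -2.56 for Cd34. It did not reach 1 log2 unit. At 72 h 517 of 16282 genes had a higher ratio than Kit. Across days untreated Kit was 1.32-fold lower at day 17 and treated Kit was 1.26-fold higher.

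**Figure D3:**
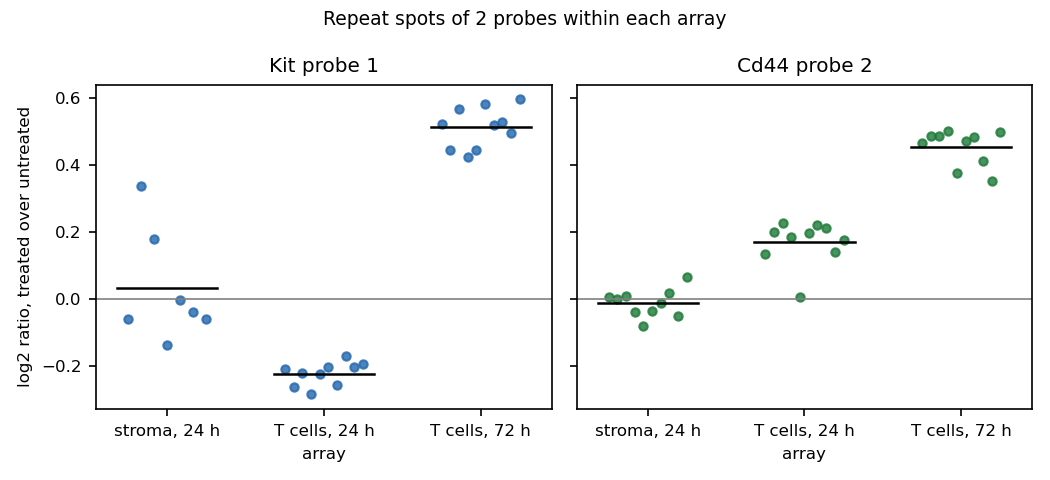
Log2 ratios of treated over untreated RNA (vertical axis) for the repeat spots of the Kit probe and of Cd44 probe 2 on each array (horizontal axis), with a bar at the mean. After loess, Kit spots lie from -0.29 to -0.17 at 24 h and from 0.42 to 0.60 at 72 h, and Cd44 spots from 0.35 to 0.50 at 72 h.

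Flt3, the receptor for the FLT3 ligand added to these cultures, gave signals close to background throughout. At day 14 they were 46.7 untreated and 95.9 treated over backgrounds of 22.5 and 62.5, which passed as well above background in both channels. In stroma they were 33.2 and 74.1, and at day 17 they were 35.1 and 80.4, and neither pair passed. Its log2 level was 6.49 untreated and 6.26 treated at day 14, 6.51 and 6.39 in stroma, and 6.19 and 6.28 at day 17. All 6 levels thus lay in a narrow band, and the samples that passed were not the brightest.

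The Flt3 log2 ratio at 24 h was -0.23 by loess and -0.84 (deposited error 0.322) in the authors' deposited log ratio. It was below 0 under every alternative, from -0.89 to -0.23, and passed 2-fold in 0 of them. From day 14 to day 17 untreated Flt3 was at least 1.23-fold lower by the bound used for Kit. This bound is not a firm minimum, since it rests on 1 spot per array near the lowest level well above background. Untreated stroma, which did not pass, read 6.51, above the 6.49 of untreated day 14 T cells. For the treated samples no fold could be given, since the dim day 17 signal was not below the day 14 signal. With an offset of 0 in place of 50 added to each signal, the ratio was -0.54.

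Cd44, the hyaluronan receptor, was bright in stroma and in T cells on probes 1 and 2. On probe 1 the signals were 3736 and 9208 in untreated and treated stroma, 2892 and 8781 in T cells at day 14, and 2003 and 5851 at day 17. On probe 2 they were 1766 and 4635, then 1154 and 3299, then 986 and 3541. Probe 3, printed above, was not well above background in any sample, at 1.14 to 1.58 times its local background. Forms of Cd44 without its stretch are not read by this probe.

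The log2 level of Cd44 on probe 1 was 12.65 untreated and 12.47 treated in stroma, 12.25 and 12.45 at day 14, and 11.52 and 11.65 at day 17. On probe 2 it was 11.66 and 11.64, then 10.80 and 10.97, then 10.44 and 10.89. On both probes stroma was highest in the untreated samples and day 17 T cells lowest. On probe 1 treated stroma and treated day 14 T cells were 0.02 apart, within the spread of repeat spots. Untreated stroma exceeded untreated day 14 T cells by 0.41 on probe 1 and 0.86 on probe 2, and untreated day 17 T cells by 1.13 and 1.22.

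The Cd44 log2 ratio in T cells was 0.21 on probe 1 and 0.17 on probe 2 at 24 h, and 0.13 and 0.45 at 72 h. The 10 spots of probe 2 lay between 0.01 and 0.23 at 24 h and between 0.35 and 0.50 at 72 h, with 10 of 10 above 0 on both arrays. The probes differed by 0.33 at 72 h, more than the SD of 0.178 between probes of a gene, so the size of the Cd44 ratio there depends on the probe. In stroma the ratios were -0.19 and -0.01, but that of probe 1 turned to 0.77 when centred on all probes and to 0.13 when centred on measured genes. On probe 1, the brightest, no Cd44 ratio reached 2-fold in the settings run. Probe 2 did not reach it by loess or in the authors' deposited log ratio, and whether it would when centred on all probes was not tested. The deposited 72 h ratio of probe 3 was past 2-fold, but this probe was not well above background.

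Stroma had high Cd44, and stromal marker genes were measured in the T cell samples too. Of 20 stromal markers 18 were measured on the 24 h T cell array, where 54.7% of all measured genes had a ratio above 0. All 18 were above 0, with a median of 0.72. At 72 h, where 51.0% of all measured genes were above 0, 19 stromal markers were measured. Of these 17 were above 0, with a median of 0.71 over the 19. The summed level of the 20 stromal markers after scaling was 137100 untreated and 246700 treated at day 14. It was 355200 and 562800 at day 17, against 600100 in untreated stroma. Their part in the Cd44 ratios was not tested. Their part in the Cd34 and Kit ratios was not tested either.

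Prom1, the CD133 gene, was not well above background on either probe in any sample. Its signals were 0.961 to 1.54 times the local background, and its log2 levels lay from 5.86 to 6.18. No ratio or fold is given, and its RNA was not detectable by these probes at this signal.

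The ligands and partners of the markers were described by a list of 17 genes. Of these 11 were measured in stroma, with 0 past 2-fold, where 0.551% of all measured genes were. In each T cell comparison 14 were measured. At 24 h 1 was higher, Spp1, where 0.324% of all measured genes passed in either direction. The median of the list was 0.10, beside 0.02 for all genes. At 72 h 0 were higher and the median was 0.10, beside 0.01 for all genes.

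Kitl, the gene for stem cell factor and thus the ligand of KIT, had a ratio of -0.79 in stroma, 0.63 in T cells at 24 h and -0.22 in those at 72 h. Its log2 level was 10.55 in untreated stroma, 9.70 in untreated T cells at day 14 and 11.38 at day 17. Flt3l, the FLT3 ligand gene, had ratios of 0.40, -0.18 and 0.14. Spp1, which encodes osteopontin, a ligand of CD44, had ratios of -0.05, 1.28 and 1.00 (0.996 unrounded, short of the rule).

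Downstream of KIT and FLT3, a list of 31 adaptor, kinase and effector genes showed 0 genes past 2-fold on each array by loess. Of these 24 were measured in stroma, and 30 in each T cell comparison. Among all measured genes the share past 2-fold was 0.551% in stroma, 0.324% at 24 h and 0.608% at 72 h, so 0 is near it. The list had median ratios of 0.06 in stroma, -0.04 at 24 h and -0.02 at 72 h. In the authors' deposited log ratio 1 was lower at 72 h. Centred on all probes 4 were higher at 72 h, where 9.64% of all genes passed in either direction. At 72 h their ratios ran from -0.91, for Plcg2, to 0.54.

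Cd34 was not the only progenitor surface gene lower at 72 h. Of 30 other surface markers of blood stem and progenitor cells, 26 were measured at 72 h and 3 were lower by the 2-fold rule, with 0 higher and a median of -0.11. Of all 16282 measured genes 0.381% were lower. Muc13, a transmembrane mucin, had a ratio of -1.58. Itga4, the integrin alpha 4 gene, had -1.15 on its brightest probe, but 5 measured probes ran from -1.15 to -0.10. Cd93, a glycoprotein of early progenitors and endothelium, had -1.07, with -0.34 on its other probe. The counts were 3 higher and 1 lower when centred on all probes, where 9.64% of all genes passed in either direction. They were 1 higher and 2 lower when centred on measured genes, for which no such share is given. At 24 h 26 were measured and 0 passed the rule, where 0.324% of all measured genes did. In stroma 12 were measured and 0 passed, where 0.551% did.

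Transcription factors of progenitors were a further list, of 22 genes. At 72 h 18 were measured, 5 were lower and 0 higher, with a median of -0.25, where 0.381% of all measured genes were lower. Lyl1, a basic helix-loop-helix factor of stem cells and early lymphoid cells, had the lowest ratio, -2.55. Lmo1, a LIM-only cofactor, had -1.66. Nfe2, a factor of erythroid and megakaryocytic cells, had -1.54, and Myb had -1.29 on its brightest probe with -0.44 on the highest of 4. Erg, an ETS factor named here after its value was seen, had -1.27. At 24 h 19 were measured and 0 passed, where 0.324% of all measured genes did, with a median of -0.19 for the list. Centred on all probes the 72 h counts were 1 higher and 2 lower, where 9.64% of all genes passed, with a median of 0.01 where all genes stood at 0.54. Centred on measured genes they were 0 higher and 4 lower, with a median of -0.53. No share of all genes past 2-fold is given for that setting.

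For the T cell stage, 24 thymocyte genes were measured at 72 h. Of these 2 were higher, Cd8b1 at 1.62 and Cd8a at 1.31, which encode the chains of CD8. Il2ra, the CD25 gene of early thymocytes, was lower at -1.10, and the median of the list was -0.06. Of all 16282 measured genes 0.608% passed the rule in either direction. With arrays centred on all probes 4 were higher and 0 lower, where 9.64% of all genes passed and the median of all genes was 0.54. At 24 h 0 of 23 measured genes of the list passed the rule, where 0.324% of all measured genes did.

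**Figure D4:**
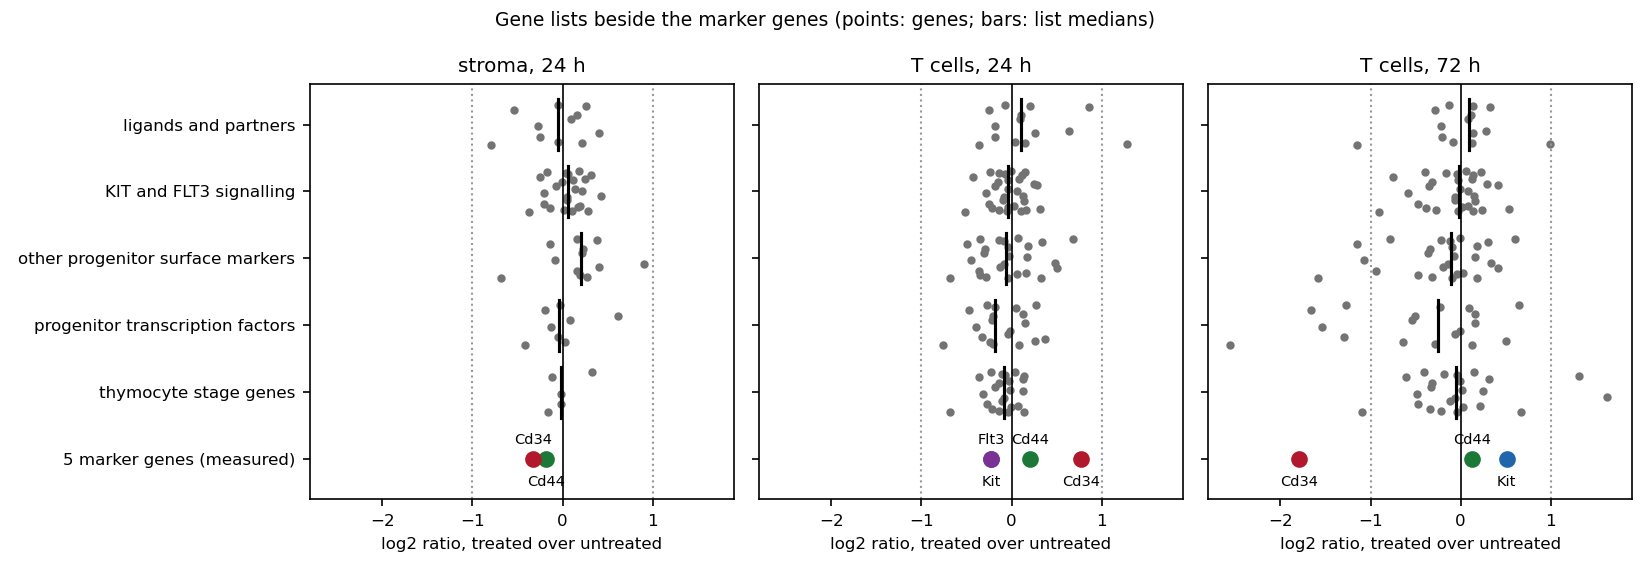
Log2 ratios of treated over untreated RNA (horizontal axis) for the measured genes of each list (grey points, bar at the median) and for the measured marker genes (coloured), 1 panel per array. At 72 h Cd34 lies at -1.79 beside 5 transcription factors and 3 other surface markers past 2-fold downward, while Kit lies at 0.51.

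Markers of other cell types are given beside the Cd34 ratio at 72 h, where 0.381% of all measured genes were lower by the 2-fold rule. Of 11 B lineage markers 9 were measured, 4 were lower and 0 higher, with a median of -0.97. Centred on all probes 0 passed the rule, where 9.64% of all genes did, and the median was -0.43. Their summed level was 28900 untreated and 33480 treated at day 14, and 6908 and 4498 at day 17. Pax5 was not well above background at day 17. Mast cell markers, a cell type that also carries KIT, summed to 6494 untreated and 2244 treated at day 17. Of their 9 genes 3 were measured, with a median of -0.14, and Ms4a2 was not well above background. Only Cpa3 was lower by the rule, at -2.13, from a log2 level of 12.47 to 10.35, while Kit itself was at 0.51. The sum over erythroid and megakaryocyte markers, 10 genes with 6 measured and 1 lower, was 3024 untreated and 1459 treated, with a median ratio of -0.07. The lower gene was Hbb-bt, a beta globin gene, at -2.11, and the other measured ratios ran from -0.20 to 0.38. Of 10 NK, gamma-delta and cytotoxic cell markers, all measured, 3 were lower and 0 higher, with a median of -0.71 and a sum of 79120 untreated and 61200 treated. Of 12 myeloid markers on the array 7 were measured and 2 were lower, with a median of 0.07 and a sum of 1884 untreated and 1533 treated. The part of these cells in the Cd34 ratio was not tested.

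The genes with the most similar pattern to each marker were found as those with the smallest root mean square difference in log2 level over the 6 samples, after each gene was centred on its own mean. For Cd34, the nearest of 12268 genes were Vpreb3 (0.47), Lyl1 (0.48) and Vpreb1 (0.48). Lyl1 had lower ratios than Cd34 on both T cell arrays, -0.47 at 24 h and -2.55 at 72 h. Vpreb1, a surrogate light chain gene of B cell precursors, had 0.14 and -1.57, and Vpreb3 had 0.34 and -0.97. For Kit, the nearest of 13440 genes were Prkcq (0.18), Dennd1c (0.19) and Arhgap25 (0.20), none of them measured in stroma. Their 72 h ratios were between -0.08 and 0.05, beside 0.51 for Kit.

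For Cd44 the nearest of 12268 genes were Gpat3 (0.06), Vmn1r25 (0.08) and Cyp26b1 (0.10). Vmn1r25 encodes a vomeronasal receptor, and Cyp26b1 an enzyme that breaks down retinoic acid. For Flt3 the nearest of 14186 genes were Olfr58 (0.04), Olfr218 (0.04) and Gapdhs (0.05). The first pair are olfactory receptor genes, and the Flt3 pattern lies near the lowest level well above background. Prom1 was measured in 0 samples and was given no such genes. All these distances rest on 6 samples from 3 arrays, which share array and dye.

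**Figure D5:**
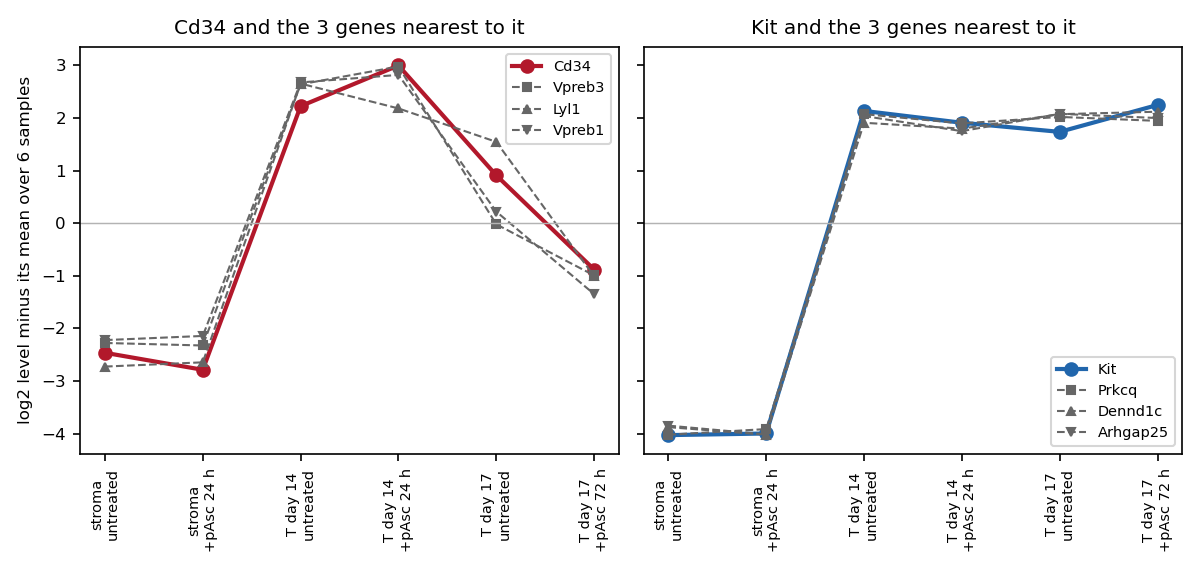
Log2 level minus its mean over the 6 samples (vertical axis) for Cd34 (left) and Kit (right) with the 3 genes nearest to each (grey dashed lines), by RNA sample. Cd34 and its neighbours are highest at day 14 and lower at day 17, and Kit and its neighbours are high in the 4 T cell samples, with Kit between 11.88 and 12.39 there before centring.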

How the data were processed

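RNA from stroma and T lineage cells was hybridised to 3 Agilent arrays of 2 colours, 1 per comparison. The deposited intensity values are unnormalized mean spot signals with median local backgrounds. Per the file headers they were read with Feature Extraction 10.5.1.1. The authors also deposited a log10 ratio of Cy5 over Cy3 after background subtraction, detrending and dye normalization, per the file headers. It was turned to log2.

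Ratios were made in R 4.3.3, using limma 3.58.1, by normexp with an offset of 50 and loess with a span of 0.3. Control spots and spots with outlier flags (117 to 130 an array, 3 of them Kit spots on the stromal array) had weight 0. Aquantile scaling was added for levels. Spots of a probe were averaged, and the brightest probe stood for a gene. Names came from RefSeq by accession for 25089 probes, by symbol for 6339 and by synonym for 1639, and 8107 kept the file's name. A 2-fold rule replaced a test. Steps were checked on simulated arrays. Python 3.11.15 with pandas 2.3.3 and numpy 2.4.6 made the tables.

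The marker genes, the gene lists and the rules were chosen with earlier results of these data known. The named genes were the marker genes, the ligands Kitl, Flt3l and Spp1, up to 4 members past 2-fold of each list and array, and the 3 nearest genes of each marker. A few list members are left unreported here.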

Additional observations from a re-analysis of the deposited data

Results flagged for a closer look

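Cd34 had a log2 ratio of 0.77 in T cells treated for 24 h and -1.79 in those treated for 72 h, opposite directions under the same treatment. The 72 h minus 24 h difference was -2.56. With 1 array per time this difference was not tested, and the cultures also differed in age, 14 days against 17 days.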

How the results depend on the processing

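The count of marker genes past 2-fold changed under 1 of the alternatives, centring on the median of all probes in place of loess. It became 1 at 24 h, with Cd34 at 1.36, and 2 at 72 h, with Kit higher at 1.27 and Cd34 lower at -1.16. Under this setting the medians of all genes were 0.41 and 0.54, while Flt3 at 24 h was at -0.48, below its loess value. The other counts stayed the same. Of 72 single ratios run under alternatives 51 moved by less than the technical spread and 21 moved by more. Part of the 51 could not move, so this count is no measure of robustness. Loosening the filter on dim probes leaves a measured ratio as it is. A median over probes does the same for Cd34, Kit and Flt3, which have 1 probe each. The only called ratio, Cd34 at 72 h, kept its sign. Among uncalled ratios Kit at 24 h turned to 0.34 when centred on all probes, still below the median of 0.41 for all genes. Stromal Cd44 turned to 0.77 when centred on all probes and to 0.13 when centred on measured genes. Cd34 ranged from 0.77 to 1.36 at 24 h and from -1.91 to -1.16 at 72 h. No paired analysis was possible because each comparison has 1 array. Signal over background limits Flt3, Prom1 and Cd44 probe 3, and 1 array per comparison limits the rest.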
